A study of Rattus norvegicus with 8 samples.

Results

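The axon guidance ligands and receptors measured in the rat hypothalamus were the probes whose gene name on the array begins with the family name of a class 3 to 7 semaphorin, a plexin, a neuropilin, an Eph receptor, an ephrin, a Slit, a Robo, an Unc5 receptor or a netrin. The rule took 66 gene names of 19298, carried by 85 probes of 30367. Of these, 64 fall into 12 family groups, and Unc50 and Unc5cl matched by name alone and are not guidance receptors. The families comprised 7 secreted semaphorins, 13 membrane semaphorins, 2 neuropilins, 8 plexins, 8 EphA receptors, 3 EphB receptors, 5 ephrins of class A, 3 ephrins of class B, 3 Slit ligands, 4 Robo receptors, 5 netrins and netrin-G genes, and 3 Unc5 receptors. Total RNA came from Sprague Dawley rats aged 3 to 4 months, with 4 females in estrus and 4 males, and the labels name no other treatment or allele. Each of 4 two-colour arrays held the female and the male of 1 replicate number. Females were labelled with the dye Cy3 on arrays 1 and 3 and with Cy5 on arrays 2 and 4, and the male of each array carried the other dye. All females were in estrus, so sex and cycle stage cannot be told apart. The rats are described as separate animals, and p-values measure the spread between them.

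Guidance genes encode the signals that steer growing axons and, in the adult brain, act on synapses, spines and blood vessels. Ligands are either secreted, as are netrins, Slits and class 3 semaphorins, or held on the cell surface, as are ephrins and the other semaphorins, and receptors on the growth cone turn them into attraction or repulsion. Ephrins of class A are tethered by a lipid anchor and those of class B cross the membrane, and Eph receptors are tyrosine kinases that signal on contact between cells.

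The 8 libraries were set against markers of their labelled tissue, and the library labelled male replicate 2 went against its label. Over 17 measured markers of the hypothalamus, the log2 of summed intensity was 14.02 in that library, against 17.85 to 18.06 in the other males and 17.83 to 18.23 in the females. The melanin-concentrating hormone precursor gene Pmch stood at 12.19 there and at 16.48 to 16.82 in the other males, on the log2 intensity scale. Over 13 measured markers of cortex, hippocampus and striatum the summed level was 17.31 in that library, 14.63 to 14.74 in the other males and 14.62 to 15.70 in the females, where female replicate 2 was the highest. The transcription factor gene Neurod6, a marker of cortical and hippocampal neurons, stood at 13.90 in the library labelled male replicate 2, 11.94 in female replicate 2 and 7.25 to 9.04 in the other 6. Of the 13, 11 were higher there than in male replicate 4, and the striatal markers Rgs9 and Drd2 were lower, at 10.56 against 11.25 to 11.76 and at 10.29 against 10.63 to 10.87 in the other males. The summed thalamic markers were at 11.86 there and 13.84 to 14.04 elsewhere. That sum is mostly Slc17a6, at 11.28 against 13.69 to 13.87, and the median difference of the 6 from male replicate 4 was -0.50. Male replicate 4 stood apart in Ttr, at 16.49, which put its summed choroid plexus markers at 16.54 against 12.06 to 13.96 in the other 7. That library was also the highest for Kcne2 and Clic6, but not for Folr1, Kcnj13, Otx2 or Aqp1. Meningeal markers summed to 12.81 in male replicate 2 and 14.09 in male replicate 4, against 15.25 to 15.51 in the other males. None of these 5 lists had a marker at background in all samples. The part of tissue composition in the values below was not tested, and the fitted ratios of named genes are also given without replicate 2. In bulk tissue, fewer cells of a type and less RNA per cell cannot be told apart.

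**Figure D1:**
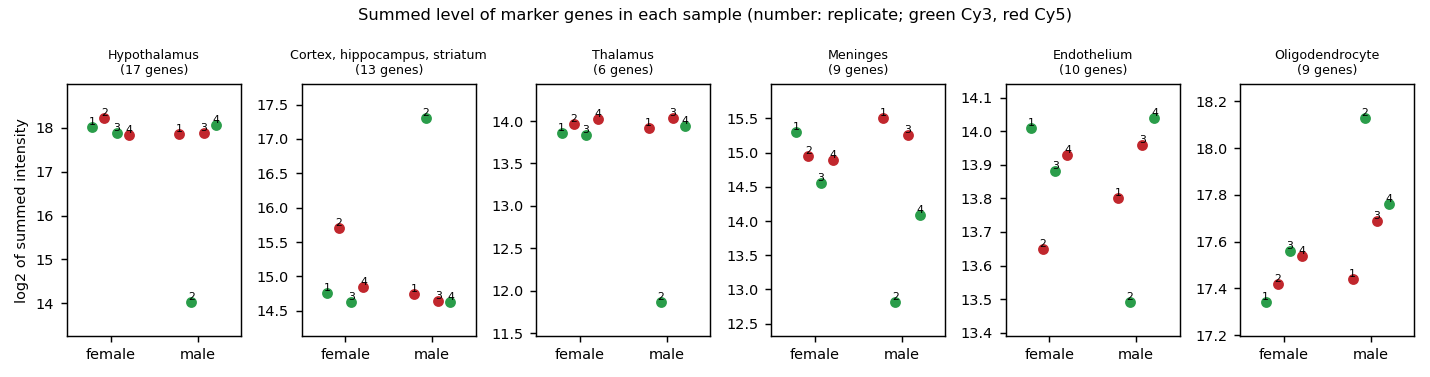
Log2 of the summed intensity of marker genes in each sample, by sex, for 6 marker lists (number beside a point: replicate; green: Cy3; red: Cy5). The library labelled male replicate 2 lies at 14.02 for hypothalamic markers, below the 7 others, and at 17.31 for markers of cortex, hippocampus and striatum, above them.

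The probes are 60 bases long. Of the 85 member probes, 74 have a reading frame without a stop codon, so such a frame does not show that the target is coding. The 5 shown here belong to genes whose brightest probe differed by over 2-fold between a pair of males, as described further on. Not every gene of that set is shown, and each printed probe has a reading frame free of internal stop codons. They come from the array files, read 5′ to 3′ in the direction of the transcript, with capitals for the stop codon that closes the Slit3 frame. Positions are on the rn4 build.
Epha5 (chr14:25884050-25884109, plus strand): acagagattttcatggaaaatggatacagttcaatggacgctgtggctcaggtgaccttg
Epha6 (chr11:41444908-41444967, plus strand): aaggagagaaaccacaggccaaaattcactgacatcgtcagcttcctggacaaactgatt
Epha7 (chr5:44875578-44875637, plus strand): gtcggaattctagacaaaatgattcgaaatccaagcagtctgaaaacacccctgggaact
Plxnc1, the dimmer of the probes (chr7:31988542-31988601, minus strand): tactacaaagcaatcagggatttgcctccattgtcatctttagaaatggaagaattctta
Slit3 (chr10:20576283-20576342, plus strand): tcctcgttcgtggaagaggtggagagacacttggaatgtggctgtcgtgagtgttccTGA
The longest run of bases shared by EphA probes of different genes was 8, and over all member probes it was 12, between Efna2 and Efna4. Of the 66 genes, 19 had more than 1 probe, and no probes of a gene overlapped. The 2 probes of Epha4 lie 821 bases apart on chromosome 9, minus strand, at 76678020 to 76678079 and at 76677199 to 76677258.

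Most guidance genes were measurable. A probe was well above background in all 8 samples for 54 of the 66 genes, in some samples for 9, and in no sample for 3, namely Ntn1, the founding netrin, the netrin-G gene Ntng2, and Nrp2, the co-receptor for Sema3f. The test covered 58 of the 66, those with a probe that rose well above background in every animal of 1 sex or both. Besides the 3 in no sample, the 5 left out were Epha3, Efna5, Sema5b, Sema3e and Plxna4a, which is now named Plxna4. Epha3 was well above background in 1 female and 2 males, Efna5 in 2 and 2, Sema5b in 2 and 2, Sema3e in 1 and 2, and Plxna4a in 3 and 3. No member gene was measurable in every animal of 1 sex and in none of the other. A failed probe says nothing of other parts of the transcript. Sema3d, Sema3g, Unc5c, Epha2, Epha8 and Robo3 each had 1 probe that failed and 1 that passed.

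No guidance gene passed the test for a sex difference. With limma, 0 of 58 genes had an adjusted p under 0.05, as did 0% of all 14656 genes tested, and the lowest adjusted p was 0.555 for members and for all genes. At an unadjusted p under 0.05 there were 3 of 58, or 5.17%, beside 8.48% of all genes. Of the 3, Efnb1 was higher in females, beside 4.99% of all genes, and Sema7a and Slit1 were higher in males, beside 3.49%. The log2 ratio of female over male, fitted with a term for the dye, had a median of -0.03 over the members and 0.02 over all genes, and ran from -0.47 to 0.36. It was above 0 for 22 members and below 0 for 36. None differed by over 1.5-fold, against 1.96% of all genes. The levels of the sexes overlapped for every member tested, whereas 1.12% of all genes had all females above all males and 1.47% had the reverse. By array, 1 member, Sema3d, had a ratio above 0 on 4 of 4 arrays, where 5.08% of all genes did. Below 0 on all of them were 3 members, Nrp1, Slit1 and Unc5b, where 5.56% of all genes were. Some of these ratios were close to 0. Those of Sema3d, rounded, were 0.01, 0.00, 0.02 and 0.17, at levels of 6.76 to 6.95. The ratio nearest 0 was -0.01 for Nrp1 and for Unc5b, and -0.03 for Slit1.

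The counts turned on single replicates. Without replicate 2, 0 of 58 passed after adjustment, 1 had an unadjusted p under 0.05, beside 8.04% of all genes, the median was 0.00, and 16 of 58 ratios changed sign. Without replicate 4, 11 passed with limma at an adjusted p from 0.0309, where 7.55% of all genes passed. These were Efnb1, Epha4, Epha6, Epha8, Plxnc1, Robo2, Robo3, Sema3f, Sema5a, Slit3 and Unc5a. In that fit array 2 was the only array with the female in Cy5, and no second array checked its ratios. The same limit holds for each fit that left out a replicate, since 1 dye orientation then rested on a single array. Without replicate 2 that was array 4. Standard errors without replicate 2 thus took no spread from array 4, only that between arrays 1 and 3 and the variance limma shares over genes. Without replicate 1 or replicate 3 no member passed at either threshold.

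**Figure D2:**
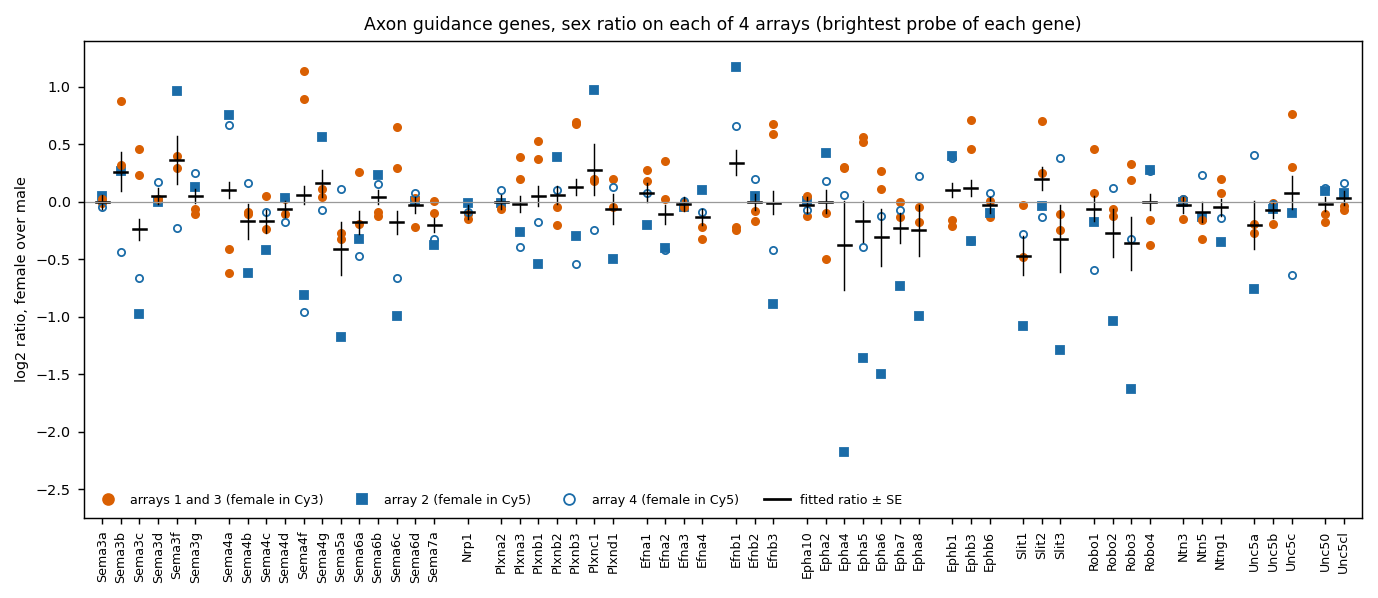
Log2 ratio of female over male on each of the 4 arrays (points) and the fitted ratio with its standard error (bars), for the brightest probe of each of 58 genes, grouped by family. Array 2, drawn as squares, lies apart from the other 3 for Epha4, Epha5, Epha6, Robo3, Slit3 and Sema5a, below 0, and for Plxnc1, above 0.

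Among the receptors of the Eph family, EphA genes had a fitted median of -0.23 on the log2 ratio scale over 7 members. All 7 lay at or below 0, and 0 of 7 had an unadjusted p under 0.05. Without replicate 2 the median of the 7 was 0.03. Epha4, which binds ephrins of both classes, read 11.20, 11.36, 11.18 and 11.03 in females 1 to 4 and 10.89, 13.54, 10.90 and 10.97 in males 1 to 4, in log2 intensity. Far above the other 7 was the library labelled male replicate 2, and the other 3 males lay just below the females. The ratios on arrays 1 to 4 were 0.30, -2.18, 0.29 and 0.06, and the fit gave -0.38 ± 0.39 (SE, 95% interval -1.44 to 0.68, adjusted p 0.69 with limma). Without replicate 2 it gave 0.18 ± 0.07 with an adjusted p of 0.598.

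The second probe of Epha4 disagreed with the first. It read 10.53, 9.67, 9.90 and 9.63 in the females and 10.78, 12.79, 10.65 and 10.43 in the males. Again the library labelled male replicate 2 was the highest, but here the other 3 males lay above 3 of the 4 females. Its ratios were -0.25, -3.13, -0.74 and -0.80, so on arrays 1, 3 and 4 the probes of Epha4 had opposite signs. Its fitted ratio was -1.23 ± 0.41 (unadjusted p 0.0381, adjusted p 0.555 with limma), which is 0.85 from that of the brighter probe and the widest gap between probes of a member gene. The other 12 genes with a pair of tested probes differed by 0.01 to 0.34.

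Epha6 and Epha7, receptors of class A ephrins, showed the same library on top. Epha6 read 7.43, 8.15, 7.47 and 7.21 in the females and 7.16, 9.65, 7.36 and 7.33 in the males. Replicate 2 was the highest in each sex, and the groups overlapped. The fit gave -0.31 ± 0.25 (adjusted p 0.624 with limma), and 0.03 without replicate 2. Epha7 read 7.14, 7.74, 7.09 and 7.11 in the females and 7.14, 8.46, 7.22 and 7.18 in the males. Again replicate 2 was the highest in each sex, and the fitted ratio was -0.23 ± 0.13 (adjusted p 0.568), or -0.07 without replicate 2. Epha5 read 10.25 to 10.77 in females and 10.13 to 11.72 in males, and Epha8 10.18 to 11.06 and 10.36 to 12.05, each with the library labelled male replicate 2 at the top. Epha2, an epithelial and vascular member, and Epha10 did not share that order: male replicate 2 was the lowest male for both, at 8.13 for Epha2 and 7.33 for Epha10.

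EphB receptors, which bind transmembrane ephrins, differed little. Ephb3 read 10.63, 10.32, 10.51 and 9.97 in females and 9.91, 10.66, 10.05 and 10.31 in males. In both sexes the Cy3 samples, replicates 1 and 3 of the females and 2 and 4 of the males, were above the Cy5 samples. The fitted ratio was 0.12 ± 0.07 (adjusted p 0.576 with limma), and 0.13 without replicate 2. Ephb1 stood at 0.10 ± 0.06 (adjusted p 0.577), with 0.01 at its dimmer probe and 0.10 without replicate 2. Ephb6, a member without kinase activity, ranged over 11.41 to 11.83 in females and 11.36 to 11.92 in males.

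Of the ephrins, the ligands of these receptors, the X-linked gene Efnb1 had the smallest p of all members. Efnb1, a transmembrane ephrin (chromosome X, 87175892 to 87175951, plus strand), read 9.0, 9.52, 8.84 and 9.27 in the females and 9.22, 8.35, 9.09 and 8.61 in the males. The Cy5 samples of each sex were above the Cy3 samples, and the groups overlapped. The ratios on arrays 1 to 4 were -0.22, 1.17, -0.25 and 0.66, so their sign followed the dye. The fit gave 0.34 ± 0.11 (95% interval 0.05 to 0.63, unadjusted p 0.0301, adjusted p 0.555 with limma). Without replicate 2 the ratio was 0.21 ± 0.07 (unadjusted p 0.0371, adjusted p 0.598). Its dye effect of 0.58 passed its own test at an adjusted p of 0.0439.

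Efnb3, another ephrin of class B, read 12.83, 12.26, 12.92 and 12.38 in females and 12.16, 13.15, 12.33 and 12.80 in males. The Cy3 samples were the higher ones in each sex. Its ratio was -0.01 ± 0.10, and 0.11 without replicate 2. Among lipid-anchored ephrins, Efna4 had 7.61 to 7.71 in females and 7.57 to 7.93 in males, with a fitted ratio of -0.13 ± 0.07 (adjusted p 0.565), or -0.18 without replicate 2. Efna2 stood at -0.11 ± 0.08 (adjusted p 0.612), with -0.02 at the dimmer probe and -0.12 without replicate 2. Efna1, Efna3 and Efnb2 lay between -0.02 and 0.08.

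Slit proteins are secreted repellents, and the Robo family includes their receptors. Slit1 read 11.41, 11.99, 11.88 and 11.32 in females and 11.89, 13.08, 11.91 and 11.59 in males. The library labelled male replicate 2 was 1.48 above male replicate 4 on the log2 scale, and the other 3 males lay within the range of the females. The ratios were -0.48, -1.08, -0.03 and -0.28, below 0 on all 4 arrays, and the fit gave -0.47 ± 0.17 (95% interval -0.93 to -0.01, unadjusted p 0.0477, adjusted p 0.555 with limma). Without replicate 2 it was -0.27 ± 0.12 with an adjusted p of 0.602. Slit3 read 9.69, 9.92, 9.23 and 9.64 in females and 9.80, 11.21, 9.48 and 9.25 in males. It too was highest in the library labelled male replicate 2. Its fitted ratio of -0.32 became 0.10 without replicate 2. Slit2 differed from both, with 11.39 to 11.88 in females and 11.18 to 11.56 in males and a ratio of 0.20 ± 0.10 (adjusted p 0.555). Without replicate 2 it was 0.17, and the dimmer probe read -0.01.

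Among the Robo genes, Robo3 is known from mouse for the crossing of the midline by commissural axons. It read 7.24, 7.97, 7.30 and 7.08 in females and 7.05, 9.60, 6.97 and 7.40 in males. Replicate 2 was the highest in each sex. Its fitted ratio was -0.36 ± 0.23 (adjusted p 0.59 with limma), and -0.03 without replicate 2. The other Robo3 probe was well above background in 0 females and 2 males and bears no ratio. Robo2 read 9.97, 10.16, 10.10 and 10.23 in females and 10.09, 11.20, 10.15 and 10.11 in males. Apart from the library labelled male replicate 2, the 7 others lay within a span of 9.97 to 10.23. Its ratio was -0.27 ± 0.21 (adjusted p 0.618), and 0.02 without replicate 2; the dimmer probe gave -0.20 ± 0.11. Robo1 had 6.79 to 7.37 and 6.91 to 7.38, and Robo4, an endothelial member, 8.14 to 8.54 and 8.23 to 8.52, in females and males, with male replicate 2 inside both ranges.

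**Figure D3:**
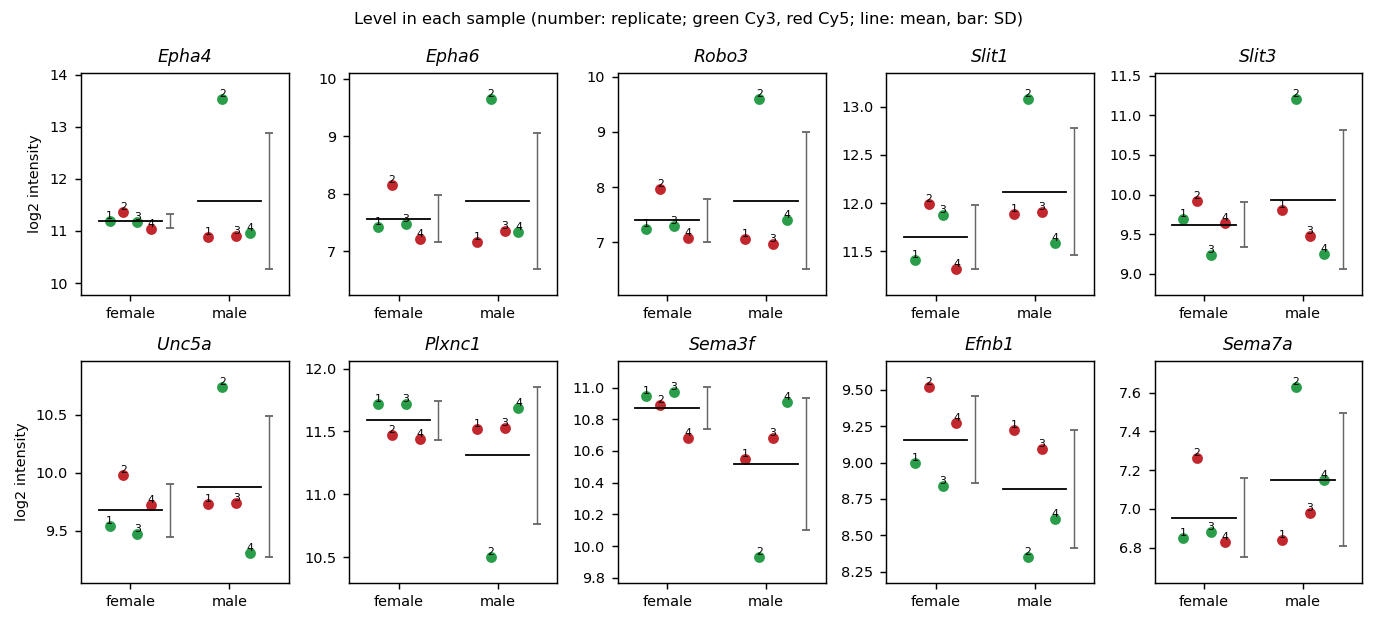
Log2 intensity in each sample, by sex, for 10 guidance genes (number beside a point: replicate; green: Cy3; red: Cy5; line: mean; bar: SD of 4 samples). The library labelled male replicate 2 is the highest male for Epha4, Epha6, Robo3, Slit1, Slit3, Unc5a and Sema7a and the lowest for Plxnc1, Sema3f and Efnb1; the sexes overlap in every panel.

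Semaphorins signal through plexins, with neuropilins as co-receptors for most of the secreted ones. Of the secreted class, Sema3c had the smallest p, with 8.41, 7.97, 8.25 and 7.63 in females and 7.95, 8.95, 8.02 and 8.29 in males. In each sex the Cy3 samples were above the Cy5 samples. The ratios were 0.46, -0.98, 0.23 and -0.66, again split by the dye, and the fit gave -0.24 ± 0.09 (adjusted p 0.555 with limma), with -0.03 ± 0.06 at the dimmer probe and -0.16 for the brighter one without replicate 2. Sema3f, a repellent for hippocampal axons in rodents, read 10.95, 10.89, 10.97 and 10.68 in females and 10.55, 9.93, 10.68 and 10.91 in males. Here the library labelled male replicate 2 was the lowest of all 8. The ratio of 0.36 ± 0.21 (adjusted p 0.576), the highest of the members, was 0.06 without replicate 2. Sema3b had the next highest ratio of the class, 0.26, with 9.14 to 9.95 in females and 8.89 to 9.58 in males, and stood at 0.08 without replicate 2. Sema3a, Sema3d and Sema3g lay between 0.00 and 0.05.

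Of 12 membrane semaphorins tested, 4 had a ratio above 0 and 8 below, and the median was -0.11. Sema7a, a lipid-anchored semaphorin (chromosome 8, 61739451 to 61739510, plus strand), was near the detection limit, being well above background in 3 of 4 females and 4 of 4 males. It read 6.85, 7.26, 6.88 and 6.83 in females and 6.84, 7.63, 6.98 and 7.15 in males. Replicate 2 was the highest in each sex. The ratios were 0.01, -0.38, -0.10 and -0.32, and the fit gave -0.20 ± 0.06 (95% interval -0.37 to -0.02, unadjusted p 0.0343, adjusted p 0.555 with limma). Without replicate 2 it was -0.18 ± 0.07, with an unadjusted p of 0.0664. It was -0.03 without male replicate 2 alone, a fit of separate channels chosen after seeing the data. Over the processing alternatives that kept all 8 samples the lowest ratio was -1.37, in the scanner software's log ratio, with -0.59 without background correction.

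Sema5a, which carries thrombospondin repeats, read 9.54, 9.59, 9.55 and 9.75 in females and 9.86, 10.77, 9.82 and 9.63 in males. Highest was the library labelled male replicate 2, and males 1 and 3 were also above all females. Its ratio was -0.41 ± 0.23 (adjusted p 0.566), -0.25 ± 0.10 at the dimmer probe and -0.09 without replicate 2. At the dimmer probe, male replicate 2 exceeded male replicate 4 by only 0.08 on the log2 scale, against 1.14 at the brighter one. The pair of Sema6c probes differed in sign, at -0.18 for the brighter, or -0.10 without replicate 2, and 0.16 for the dimmer. The brightest probes of the other 9 genes gave ratios from -0.18 for Sema6a to 0.16 for Sema4g, which were at -0.22 and 0.00 without replicate 2.

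The plexin family had a median ratio of 0.05 over 7 measured genes, 4 above 0 and 3 below. Plxnc1, a receptor for Sema7a, read 11.72, 11.47, 11.72 and 11.44 in females and 11.52, 10.50, 11.53 and 11.69 in males. Lowest was the library labelled male replicate 2, and the other 7 spanned 11.44 to 11.72. On the 10 spots of this probe the log2 ratio had a standard deviation between 0.29 and 0.35 within an array. The fit gave 0.28 ± 0.22 (adjusted p 0.622 with limma), 0.11 at the dimmer probe, whose sequence is given above, and -0.03 for the brighter probe without replicate 2. Thus the ligand Sema7a was highest and the receptor Plxnc1 lowest among males in the same library, which is a description of 1 library. Plxnb3 stood at 0.13 ± 0.07 (adjusted p 0.565), with ratios of 0.69, -0.30, 0.68 and -0.54 that followed the dye, and at 0.07 without replicate 2. Plxnd1, a vascular plexin, and the A plexins Plxna2 and Plxna3 lay between -0.06 and 0.00.

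Nrp1, the neuropilin that was measurable, read 7.57, 7.98, 7.50 and 7.53 in females and 7.68, 7.99, 7.66 and 7.62 in males, on a probe printed on 10 spots. Replicate 2 was the highest in both sexes by a similar amount, so the ratio on array 2 was -0.01. The fitted ratio was -0.09 ± 0.06 (adjusted p 0.596), and -0.11 without replicate 2. The probe of Nrp2 was at 6.43 to 6.57 in all 8 samples, not well above background.

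Netrins attract or repel, and Unc5 receptors mediate the repulsion. The netrin genes Ntn3 and Ntn5 were measured, and, from the separate netrin-G group, Ntng1. Their fitted ratios were -0.03, -0.09 and -0.05, with no unadjusted p under 0.05 in limma. Without replicate 2 they were -0.02, 0.00 and 0.00. Ntn5 read 6.98, 6.53, 6.98 and 7.13 in females and 7.30, 6.66, 7.14 and 6.89 in males, lowest in replicate 2 of both sexes (-0.09 ± 0.09, adjusted p 0.674 with limma). Ntng1 had 8.23 to 8.43 in females and 8.15 to 8.67 in males (-0.05 ± 0.07, adjusted p 0.758). Unc5a read 9.54, 9.98, 9.47 and 9.72 in females and 9.73, 10.74, 9.74 and 9.31 in males. Replicate 2 was the highest in each sex, and the ratio of -0.20 ± 0.21 (adjusted p 0.695) was 0.09 without replicate 2. Unc5b, expressed in blood vessels, stood at -0.07 ± 0.07 (adjusted p 0.684), and Unc5c at 0.08 ± 0.14, and both were at -0.06 without replicate 2. The names matched without a guidance role, Unc50 and Unc5cl, stood at -0.02 ± 0.06 and 0.03 ± 0.06, and at -0.01 and 0.05 without replicate 2.

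Since replicate 2 recurred, animals of 1 sex in the same dye were compared, a step chosen after the values were seen and given with no test. Between the libraries labelled male replicate 2 and male replicate 4, 12 of 58 members differed by over 2-fold, or 20.7%, beside 7.67% of all genes. There were 11 higher in replicate 2, where 3.93% of all genes were, and 1 lower, where 3.74% were. On the log2 scale the 11 were Epha4 at 2.57, Epha6 at 2.32, Robo3 at 2.20, Slit3 at 1.96, Epha8 at 1.64, Slit1 at 1.48, Unc5a at 1.43, Epha7 at 1.29, Sema5a at 1.14, Robo2 at 1.09 and Epha5 at 1.08. The gene that was lower was Plxnc1, at -1.19, while its dimmer probe, the one printed above, gave -0.42, and Sema3f at -0.98 fell just short. The dimmer probes of Robo2 and Sema5a also stayed within 2-fold, at 0.76 and 0.08, and that of Epha4 gave 2.37. Robo3 and Epha8 each had a second probe that failed the filter, and these gave 0.12 and 0.08. Thus 5 of 7 measured EphA receptors, 2 of 3 Slits, 2 of 4 Robos and 1 of 3 Unc5 receptors were above 2-fold, while no ephrin, no EphB receptor and no netrin was. In the same library the hypothalamic markers were lower than in male replicate 4 by a median of -2.74 and those of cortex, hippocampus and striatum higher by 2.72. Markers of meninges, 9 of 9, and choroid plexus, 7 of 7, were also lower there, by medians of -0.70 and -0.99. Male replicate 4 was itself high in the summed choroid plexus markers, chiefly through Ttr at 16.49. That sum was 13.96 in male replicate 2, above the 12.26 and 12.90 of males 1 and 3, chiefly through Ttr at 13.78. Otx2 and Clic6 were also above both of these males there, while Folr1, Kcnj13, Kcne2 and Aqp1 were below both. The part of these marker differences in the guidance genes was not tested. Against all 3 other males, the library labelled male replicate 2 was the highest for each of the 11 and the lowest for Plxnc1.

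The other same-sex pairs differed less. Between females 2 and 4 no member passed 2-fold, where 0.861% of all genes did, and the widest member differences were 0.94 for Epha6, 0.90 for Robo3, 0.68 for Slit1 and 0.63 for Epha7. Between females 1 and 3 and between males 1 and 3 no member passed 2-fold either, where 0.9% and 0.591% of all genes did. Across the 58 genes the differences of females 2 and 4 and of males 2 and 4 correlated at 0.64, against 0.33 over all genes. These differences share arrays 2 and 4 and their normalization, and genes are not independent replicates. The corresponding value for arrays 1 and 3 was 0.27, against 0.14.

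**Figure D4:**
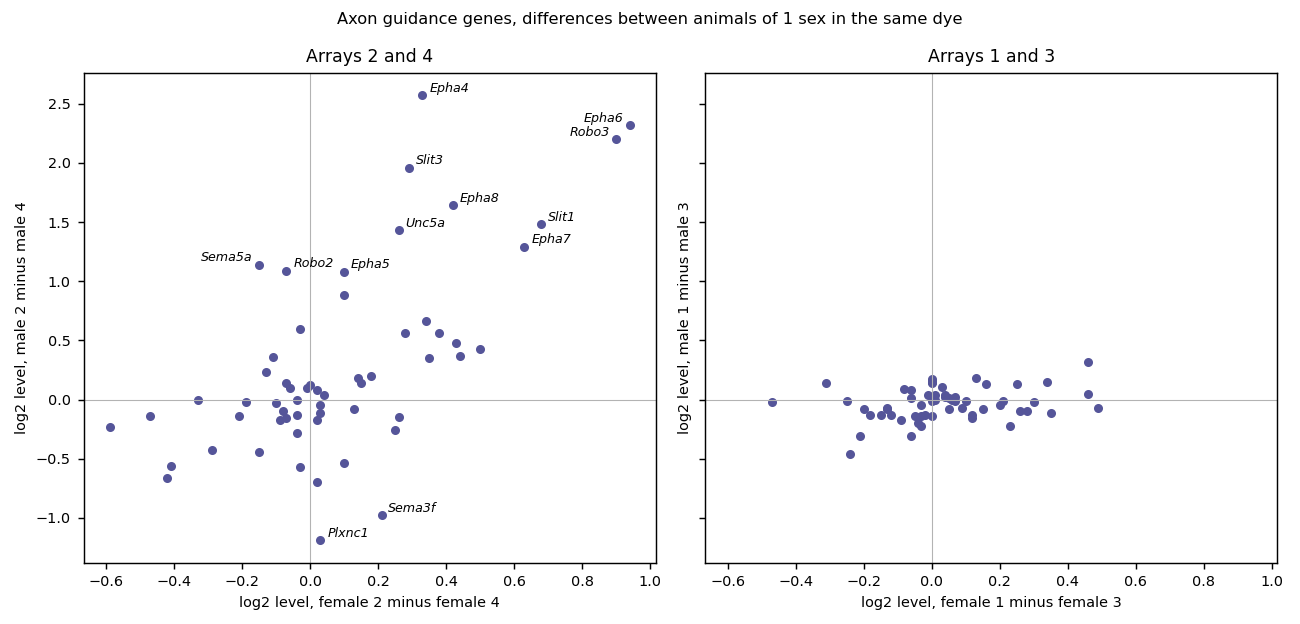
Differences in log2 intensity between 2 animals of the same sex labelled with the same dye, females on the horizontal axis and males on the vertical axis, for 58 guidance genes (points); the left panel sets replicate 2 against 4 and the right panel replicate 1 against 3. Differences reach 2.57 between males 2 and 4 (Epha4) and stay within -0.47 and 0.49 in the right panel.

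The dye shifted the ratios of some guidance genes. A dye effect passed an adjusted p of 0.05 for 8 of 58 members, or 13.8%, near the 13.2% of all genes. They were Sema4f, Sema4a, Plxnb3, Sema3c, Efnb3, Sema6c, Ephb3 and Efnb1. Sema4f, a membrane semaphorin of brain, had ratios of 1.14, -0.81, 0.89 and -0.96 on arrays 1 to 4, and Sema4a -0.41, 0.75, -0.62 and 0.67. The sign of the ratio followed the dye for 27 of 58 members and for 42.3% of all genes. Over the members the ratios of arrays 1 and 3 correlated at 0.82 and those of arrays 2 and 4 at 0.29, while pairs of arrays with opposite dyes gave values from -0.77 to -0.21. Over all genes the corresponding values were 0.66, 0.47 and -0.64 to -0.30.

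Other genes of the guidance pathways, such as co-receptors, adhesion molecules and the regulators of small GTPases downstream, were taken from a separate list of 70, of which 65 were measured. With limma 0 of 65 passed, and 7, or 10.8%, had an unadjusted p under 0.05, beside 8.48% of all genes. Higher in females were Fes, a kinase downstream of plexins, at 0.27 ± 0.06, Flrt1, a ligand of Unc5 and latrophilin receptors, at 0.20 ± 0.06, and Farp2, at 0.24 ± 0.08. Higher in males were the adhesion gene Nrcam, at -0.33 ± 0.08, the Rac regulator Chn2, at -0.28 ± 0.09, and, further down the order of p, Cntn4 and Tiam1. Each of the 7 had an adjusted p of 0.555. Without replicate 2 the ratios were 0.24 for Fes, 0.17 for Flrt1, 0.17 for Farp2, -0.26 for Nrcam and -0.18 for Chn2. In that limma fit 0 of 65 passed the adjusted threshold, and 5 had an unadjusted p under 0.05, beside 8.04% of all genes. These were Sdc3, Tiam1, Nrcam, Fes and Dpysl2, so Flrt1, Farp2 and Chn2 were not among them. Fes and Flrt1 were above 0 on all 4 arrays, where 5.08% of all genes were. Nrcam, Chn2, Cntn4 and Tiam1 were below 0 on all 4, where 5.56% of all genes were. Farp2, at 1.01, -0.38, 0.98 and -0.65, followed the dye. The 7 were picked by p from these same 4 ratios, so a shared sign adds no support.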

How the data were processed

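Hypothalamic total RNA of 8 rats was hybridised in pairs to 4 Agilent arrays in 2 colours, with 60-base probes and 44254 features per array, of which 1377 were controls. The submitters' processing notes name Agilent Feature Extraction 10.7.3.1. Signals of spots and of their local background are raw scanner intensity values per the file headers. The log ratio of the scanner software, per the file headers, is log10 of the red over the green signal after its own background and dye correction. The authors also deposited a table of log2 values. In it each value matched, within 0.01 for 100% of values, log2 of the median spot signal less the median background, shifted by 1 constant per sample to a column median of 0.

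Here the mean signal of each spot was corrected by normexp (offset 50, median local background) and the log ratios of each array by loess, in which control spots had weight 0, using limma 3.58.1, R 4.3.3 and version 1.17.8 of data.table. Spots that the scanner software marked as outliers, 931 to 1096 per array, were dropped before the spots of each probe were averaged. The filter asked that over 0.5 of a probe's spots be well above background in every animal of 1 sex or both. It was passed by 22004 probes, of which 21995 were fitted, 71 of them members. Log2 ratios of female over male were fitted with lmFit and eBayes with terms for sex and dye, and p-values adjusted by Benjamini-Hochberg over all 21995 probes. Each gene takes the value of its brightest probe. Levels are log2 intensities per channel after loess and between-array scaling (Aquantile), and are compared between samples of 1 probe only. The median signal of a spot over its background lay at 492.5 to 519 in the Cy3 channel and 146 to 269.5 in the Cy5 channel, with 84.9% to 87.0% and 77.6% to 80.2% of spots well above background. The number of arrays limits the precision.

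Animals are paired by the array they share, and because ratios are formed within an array it acts as the block. Across genes, how far a female and the male on her array departed from the mean of their own sex correlated at 0.61, 0.68, 0.47 and -0.09 for arrays 1 to 4. The members and all lists were chosen with earlier results of these data known. Ratios are given for members at an unadjusted p under 0.05, for the 2 of each family with the smallest p, for genes whose probes differed by more than 0.5, and for the 5 other guidance genes with the smallest p. Any other ratio was chosen after its value was seen. Names of 71 of the 85 member probes were matched to current reference names through their accessions. The steps were tested on simulated data. Alternatives were no dye term, no array block, no background correction, the scanner software's log ratio, centring by medians, the table of the authors, 2 other filters, the mean of a gene's probes, and leaving out each replicate; a fit without male replicate 2 alone was chosen after seeing the data. Python 3.11.15 and matplotlib 3.10.9 drew the figures.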

Additional observations from a re-analysis of the deposited data

Results flagged for a closer look

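For 26 genes the 4 levels of each sex were examined for a sample that stood apart, with the gap to the nearest sample divided by the range of the 4 set against Dixon's 95% critical value for 4 samples. Of 52 groups, 10 were beyond it, where chance gives about 1 in 20 in unrelated groups; these groups share the same 8 libraries. Over all 14540 genes with complete levels, 4.64% of the female groups and 8.8% of the male groups were beyond it, and replicate 2 was the sample apart in 2.1% and 6.45%. Over the 58 members tested the counts were 6 in females and 9 in males, replicate 2 in each case. In 7 of the 10 the sample was the library labelled male replicate 2 and in 3 it was female replicate 2, and no other sample stood apart.

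The library labelled male replicate 2 was the highest male for Epha4 (13.54, the next at 10.97, gap share 0.972), Epha7 (8.46, the next at 7.22, gap share 0.942), Robo2 (11.20 and 10.15, 0.938), Epha6 (9.65 and 7.36, 0.921), Nrp1 (7.99 and 7.68, 0.854) and Robo3 (9.60 and 7.40, 0.837). It was the lowest male for Plxnc1 (10.50, the next at 11.52, 0.86). Female replicate 2 was the highest female for Epha7 (7.74 and 7.14, 0.92), Sema7a (7.26 and 6.88, 0.893) and Nrp1 (7.98 and 7.57, 0.86). Levels are log2 intensities. The library labelled male replicate 2 held lower hypothalamic markers and higher markers of cortex and hippocampus, such as Neurod6, while the striatal markers Rgs9 and Drd2 were lower. Their part in these values was not tested.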

How the results depend on the processing

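With limma, 0 members passed after adjustment in the fit of all arrays and under every alternative except the one without replicate 4, and over the fits that left out a replicate the count ran from 0 to 11. The 11 stood beside 7.55% of all genes. At an unadjusted p under 0.05, 1 member was higher in females and 2 in males, together 5.17% beside 8.48% of all genes. These counts ran over 0 to 6 and 0 to 14 without a replicate. The highest, without replicate 4, were together 34.5% of members, near the 31.1% of all genes. Without the replicate block, that is with the channels fitted separately, the counts were 1 and 0. They were 0 and 0 without a dye term, 1 and 1 without background correction, 0 and 1 with median centring, 0 and 2 with the scanner software's log ratio, 0 and 4 in the authors' value table, and 1 and 1 with only probes well above background in all 8 samples. The authors' value table held 46 tested members, so its share was 8.7%, beside 9.67% of all genes. Over these settings the share of all genes ran from 2.76%, without a dye term, to that 9.67%. The counts of members were 2 and 1 without male replicate 2 alone, together 5.17% beside 10.1% of all genes, an alternative chosen after seeing the data. The members' median of -0.03 became -0.13 in the authors' value table, where the median of all genes was -0.07, and 0.00 without replicate 2.

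Of 357 values recomputed for 26 genes, 325 kept their sign and side of the threshold, 9 passed it, all without replicate 4, and 23 changed sign. The 9, without replicate 4, were Epha4 at -0.94, Epha6 at -0.66, Robo3 at -0.68, Robo2 at -0.56, Sema5a at -0.74, Unc5a at -0.50, Plxnc1 at 0.58, Sema3f at 0.66 and Efnb1 at 0.47. Without replicate 2 the ratio was 0.18 for Epha4, 0.03 for Epha6, 0.02 for Robo2, 0.09 for Unc5a, 0.11 for Efnb3 and -0.03 for Plxnc1. Without male replicate 2 alone it was 0.27 for Epha4, 0.30 for Epha6, 0.12 for Epha7, 0.26 for Robo3, 0.01 for Robo2, 0.15 for Unc5a, 0.08 for Efnb3, 0.02 for Ntng1, 0.02 for Nrp1, 0.00 for Unc50 and -0.03 for Plxnc1. Efnb3 was at 0.01 without replicate 3. Ntn5 was at 0.03 without background correction and 0.07 in the scanner software's log ratio, and in the authors' value table Ephb3 was at -0.02, Plxnb3 at -0.02 and Ephb1 at 0.00. The cause of these changes was not tested. Leaving out a replicate removed an array and its pair of animals together.

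Over all genes an unadjusted p under 0.05 was met by 1243, by 405 without the dye term, and by 592, 1172, 287 and 4529 without replicates 1 to 4. The split of females against males was 731 to 512, 243 to 533 with median centring, 429 to 614 in the scanner software's log ratio and 155 to 1013 in the authors' value table. Sema7a, well above background in 7 of 8 samples, was at -0.20 with all arrays, -0.59 without background correction and -1.37 in the scanner software's log ratio. The number of arrays limits every estimate.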
